A study of Drosophila melanogaster with 2 samples.

Results

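The genes described are the 51 protein-coding genes of the fruit fly whose symbols begin with eIF or eEF and a digit, the translation initiation and elongation factors, out of 13968 protein-coding genes on the main chromosome arms. Membership was set by symbol alone from the Ensembl BDGP6 annotation, but the group was chosen with earlier results of these data known. The assay was chromatin immunoprecipitation sequencing (ChIP-seq), which recovers the DNA that lies near a protein in fixed chromatin. The samples were whole Drosophila melanogaster embryos collected over 0 to 24 h of development. All embryos came from a transgenic strain that makes the CG10321 protein joined to enhanced green fluorescent protein (eGFP), and the precipitation used an antibody against GFP. There were 2 biological replicates of 1 group, both from the same strain, and no untagged or input library was analysed here. A whole embryo holds every cell type of its stage, so a peak cannot be assigned to a cell type, and fewer cells with binding and weaker binding per cell cannot be told apart.

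Translation initiation begins when eIF2 carries the initiator tRNA to the small ribosomal subunit, and eIF1, eIF1A, eIF3 and eIF5 help the complex to find the start codon. The eIF4 proteins bind the mRNA cap and unwind the leader, eIF2B recharges eIF2 with GTP, and eIF5B and eIF6 act at the joining of the large subunit. The eEF1 complex then delivers each aminoacyl-tRNA and eEF2 moves the ribosome along the message. Most of these genes are active in nearly every growing cell, while some paralogs serve mainly the male germ line.

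A gene was called bound where a peak summit lay within 500 bp of a transcription start site (TSS) of any of its annotated transcripts. The main list was the authors' conservative list of both replicates (3006 peaks on the arms), beside another thresholded list of both replicates (3457 peaks, here the larger joint list) and a thresholded list for each replicate (1996 peaks in replicate 1 and 2128 in replicate 2). Ranked lists, without that threshold, held 84640 peaks in replicate 1 and 94184 in replicate 2. Each peak carries a signal value from the authors' peak caller and a score of up to 1000, taken here as a scaled irreproducible discovery rate. No thresholded peak scored below 830. Signal values are on each list's own scale, and the median peak had a signal of 100 in the conservative list, 70.4 in the thresholded list of replicate 1 and 72.6 in that of replicate 2.

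The summit regions of 8 factor genes are shown because they carry peaks scoring at least 830 in both replicates, or a word discussed with the summits. Not all of these peaks are strong: in replicate 2, eIF1 and eEF2 were at ranks 1611 and 1888 of 2128. The summit regions of eIF6, eIF3b and eEF1alpha1 are not shown. These genes were also called in both replicates, eIF3b and eEF1alpha1 with different peaks. Each is given 5' to 3' on the strand of its gene, from the RefSeq copy of the assembly in dm6 coordinates. Capitals mark GAGAG or the word CGATA, the longer TATCGATA, and the word GGTCACAC, each on either strand. Where the 101 bases around a summit ran into an annotated untranslated region (UTR), only the stretch outside it is printed, or 30 bases around a word. eIF4A, eIF4EHP, eEF1gamma and eIF2A were chosen after their values had been seen. The order is that of the signal values.
eIF4A (chr2L:5982471-5982500, + strand): atcgctcggctgCTCTCgcccgttgacatt
eIF4EHP (chr3R:24109111-24109211, - strand): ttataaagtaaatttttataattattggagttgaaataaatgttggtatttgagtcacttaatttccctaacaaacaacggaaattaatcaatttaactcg
eIF4G2 (chr3R:23818939-23818980, - strand): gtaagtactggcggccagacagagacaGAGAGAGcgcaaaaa
eEF1gamma (chr3R:29220112-29220171, + strand): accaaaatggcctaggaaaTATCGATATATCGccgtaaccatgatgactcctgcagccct
eIF1 (chr3L:3222987-3223087, + strand): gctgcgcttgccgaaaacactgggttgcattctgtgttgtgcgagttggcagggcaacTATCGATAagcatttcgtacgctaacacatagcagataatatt
eEF2 (chr2L:21682165-21682203, - strand): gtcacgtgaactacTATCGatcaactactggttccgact
eIF5B (chr3L:3460750-3460779, - strand): gagcaccagaggCGATAaatggttcccgta
eIF2A (chr3L:21824865-21824894, + strand): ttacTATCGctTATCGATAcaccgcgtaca
The full eIF4EHP window is 23.8% G and C and holds no marked word, while the full windows of the other 7 genes range from 44.6% at eIF5B to 60.4% at eIF4A.

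Of the 51 factor genes, 13 were bound in the conservative list, a share of 25.5% (Wilson 95% interval 15.5 to 38.9), where 10.9% of all protein-coding genes were bound. In the larger joint list the count was 15 (29.4%), against 12.3% of all protein-coding genes. The 2 replicates differed in how many factor genes they held. Replicate 1 alone gave 13 bound genes (25.5%) against a background of 7.9%, and replicate 2 alone gave 7 (13.7%, interval 6.81 to 25.7) against a background of 8.16%. The 7 genes of replicate 2 were bound in replicate 1 as well, so 7 genes (13.7%) were in both thresholded replicate lists, where the background was 5.54%. Both shares count genes and do not require the same site. At eIF3b and eEF1alpha1 the replicate summits were 567 and 1312 bp apart. Counting either replicate list gave 13 genes (25.5%) against 10.5%. The replicate 1 interval (15.5 to 38.9) lies above that list's background, and the replicate 2 interval includes its own. The intervals cover counting error over genes only, and no test of the gene group against other genes was made.

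**Figure D1:**
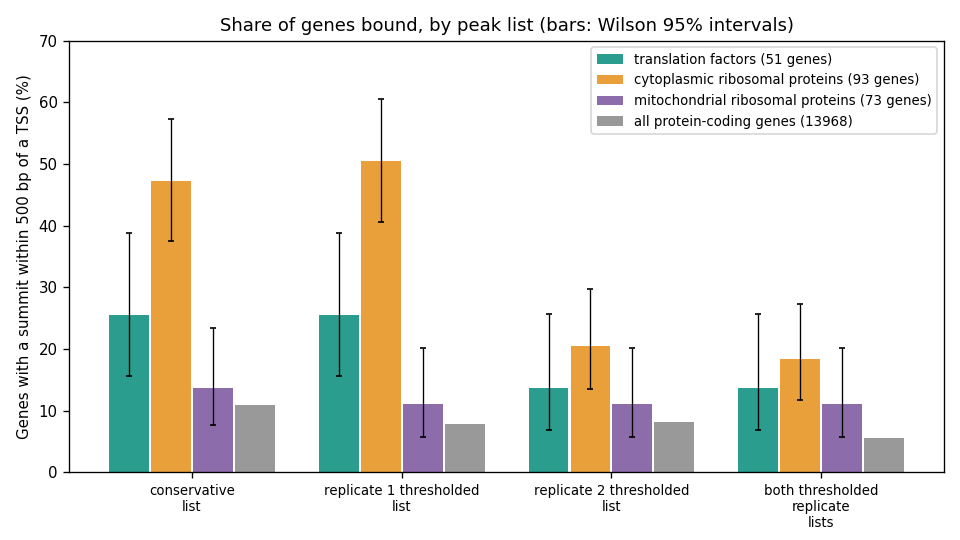
Percent of genes with a summit within 500 bp of a TSS (vertical axis) in 4 peak lists, for translation factors, cytoplasmic and mitochondrial ribosomal protein genes and all protein-coding genes, with Wilson 95% intervals on the 3 gene groups. Translation factors stand at 25.5% in the conservative list and 13.7% in replicate 2, between the cytoplasmic and mitochondrial ribosomal protein genes in each list.

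The nearest comparison is with the genes of the ribosome itself. Of 93 cytoplasmic ribosomal protein genes, 44 (47.3%) were bound in the conservative list, and of 73 mitochondrial ribosomal protein genes 10 (13.7%) were bound. The same order held in replicate 1, at 50.5% and 11%, and in replicate 2, at 20.4% and 11%, with the translation factors between them each time. The drop from replicate 1 to replicate 2 was thus shared with the cytoplasmic ribosomal protein genes (47 genes against 19) and not seen in the mitochondrial ones (8 against 8). These differences between gene groups were not tested.

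In signal, the bound factor genes were near the middle of the list. Their strongest peaks had a median signal of 129 in the conservative list, with a range from 60.4 at eIF2Bdelta to 524 at eIF6, and a median of 112 was found over all bound protein-coding genes. As a rank percentile within the list, where 100 is the strongest peak, the medians were 63.0 for the factor genes and 56.7 for all bound genes. In the replicate 1 thresholded list the factor genes had a median signal of 76.5, beside 71.0 over all bound genes. In replicate 2 the order was the other way, with a median of 50.6 beside 80.3 over all bound genes, and percentiles of 24.3 and 56.2. Of the 7 factor genes in that list, eIF1, eEF2, eEF1alpha1 and eIF3b were at rank 1611 or weaker of 2128.

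**Figure D2:**
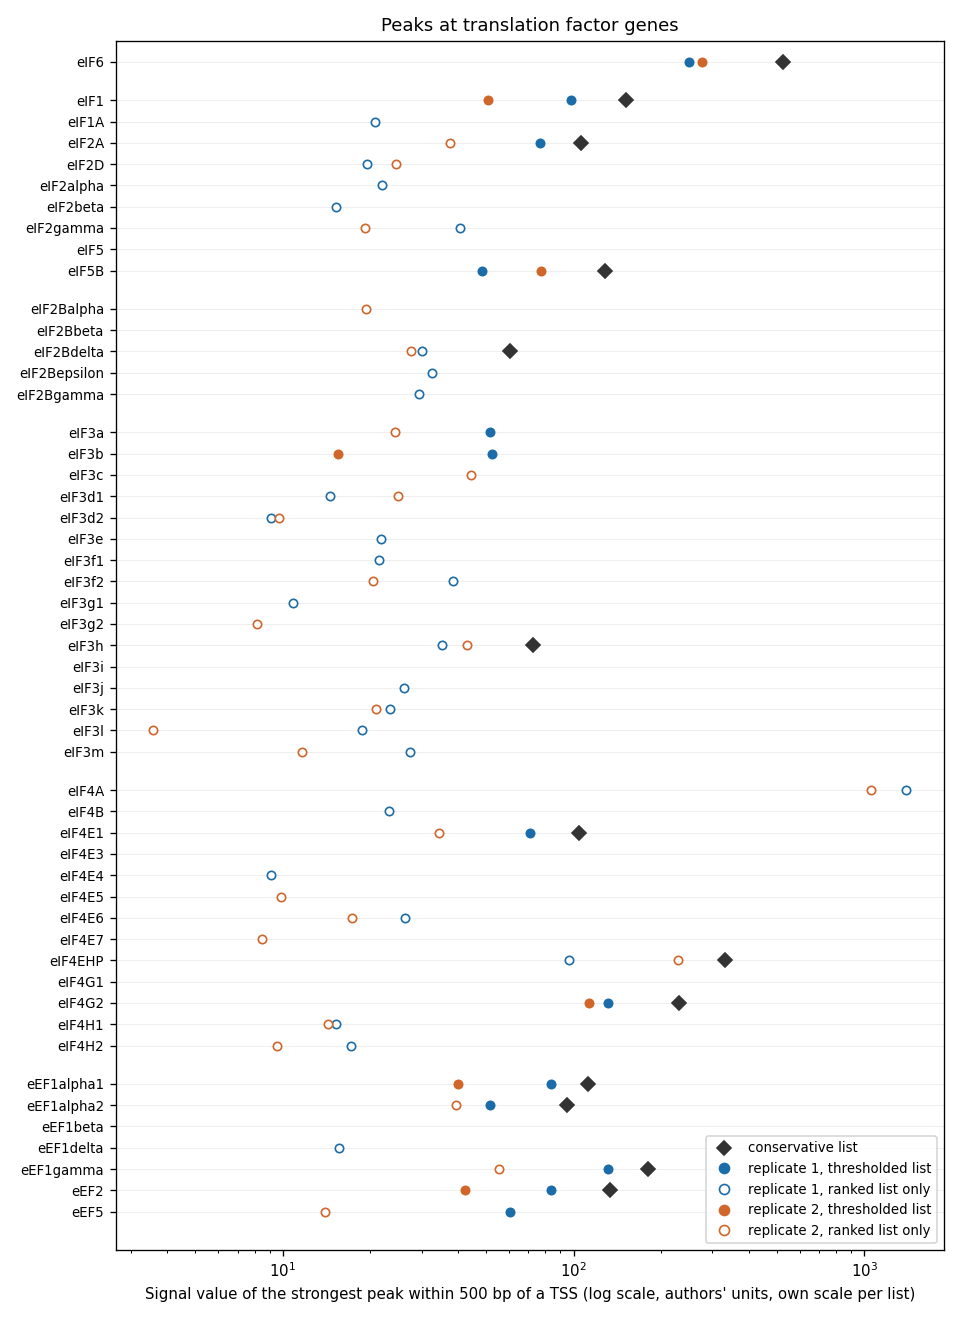
Signal value of the strongest peak within 500 bp of a TSS (horizontal axis, log scale, authors' units on each list's own scale) for each of the 51 factor genes, grouped by role. Diamonds are the conservative list, blue points replicate 1 and orange points replicate 2, filled where the peak is in a thresholded list and open where it is in a ranked list only; eIF4A, at 1394 and 1056 in the ranked lists, lies far to the right of every other gene.

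The strongest thresholded peak was that of eIF6, which holds the large ribosomal subunit apart from the small one and acts in the making of ribosomes. Its peak (chr2R:23850298-23850513) had a signal of 524 in the conservative list, rank 300 of 3006, and signals of 249 in replicate 1 (rank 335 of 1996) and 277 in replicate 2 (rank 267 of 2128). The replicate summits lay 1 bp apart. The summit was 94 bp upstream of the eIF6 TSS, in an exon of the antisense RNA gene asRNA:CR45928 and an intron of ytr. The TSS of asRNA:CR45928 was nearer, at 65 bp, and the nearest TSS of another protein-coding gene was that of ytr at 678 bp.

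The 9 genes grouped here under start codon choice and the ternary complex of eIF2, GTP and initiator tRNA were set by symbol. They also include eIF5B, eIF2A and eIF2D, whose roles differ as given below. Of the 9 genes, 3 were bound in the conservative list: eIF1, eIF5B and eIF2A. eIF1, the factor that guards start codon choice, had a peak (chr3L:3222862-3223211) with a signal of 152 in the conservative list, 97.9 in replicate 1 and 50.6 in replicate 2. That summit was 304 bp upstream of eIF1 and 77 bp upstream of RpL28, a large-subunit ribosomal protein gene read in the opposite direction, so the nearer gene of the shared promoter was RpL28. eIF5B, the GTPase of subunit joining, had a peak (chr3L:3460558-3460907) with a signal of 129 in the conservative list, 48.4 in replicate 1 and 77.3 in replicate 2. It was 130 bp upstream of its nearest TSS, inside the 5' UTR of a longer eIF5B transcript, and it was stronger in rank in replicate 2 (979 of 2128) than in replicate 1 (1545 of 1996). eIF2A, which can carry initiator tRNA by a route apart from eIF2, had a peak (chr3L:21824720-21825069) with a signal of 106 in the conservative list and 76.5 in replicate 1. In replicate 2 its peak was in the ranked list only, with a signal of 37.7 and a score of 36.

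The other 6 genes of this group were in no thresholded list. The eIF2 subunit genes were among them: eIF2gamma, the subunit that binds GTP and the initiator tRNA, had ranked peaks of 40.7 in replicate 1 and 19.1 in replicate 2. eIF2alpha and eIF2beta had ranked peaks in replicate 1 only, with signals of 21.9 and 15.2. eIF2D, which can place initiator tRNA on the ribosome without GTP, had ranked peaks of 19.4 and 24.4 whose summits lay 440 bp apart. eIF5, the GTPase activator of eIF2, had no peak in either replicate list.

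Of the 5 genes of the exchange factor eIF2B, which is blocked when stress kinases phosphorylate eIF2, only eIF2Bdelta was bound in the conservative list. Its peak (chr2R:23387131-23387480) had a signal of 60.4 and a score of 833, close to the lowest score in the list, and its summit lay 402 bp downstream of the TSS in coding sequence. Both replicates held it in their ranked lists only, at 30.2 (score 36) and 27.5 (score 81). eIF2Bepsilon and eIF2Bgamma had ranked peaks in replicate 1 (32.5 and 29.5), eIF2Balpha had a ranked peak in replicate 2 (19.4), and eIF2Bbeta had a peak in neither replicate list. The nearest conservative summit to eIF2Bbeta was 689 bp from its TSS, just outside the limit of 500 bp, with a signal of 817.

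eIF3 is the largest initiation factor, a scaffold on the small subunit, and 16 genes encode its subunits and their paralogs. A single gene of these, eIF3h, was bound in the conservative list (chr2L:5052293-5052642, signal 72.3, rank 2225), in an intron 312 bp downstream of the TSS and 375 bp from the TSS of senju. The replicates held it in their ranked lists only, with signals of 35.4 and 42.9 and summits 10 bp apart. eIF3a, the largest core subunit, was in the replicate 1 thresholded list (chr3R:4433798-4434087, signal 51.7), in replicate 2 as a ranked peak of 24.2, and in the larger joint list with a signal of 78.8. In the ranked list behind the conservative list the eIF3a peak scored 803, just under the lowest thresholded score, and its replicate 1 summit was 48 bp from eIF3a and 22 bp from CG1074 on the opposite strand. eIF3f2, a paralog of the eIF3f subunit gene, was in the larger joint list (58.0) and had ranked peaks of 38.6 and 20.4.

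eIF3b, a core subunit, was in both thresholded replicate lists, but with different peaks. In replicate 1 the peak (chr2R:17536200-17536489) had a signal of 52.2 and a summit 12 bp downstream of a TSS, in the 5' UTR of eIF3b. In replicate 2 the peak (chr2R:17535606-17535949) had a signal of 15.5, rank 2060 of 2128, and a summit 435 bp upstream, in the 5' UTR of the divergent gene Patronin, which encodes a microtubule minus-end protein. These summits were 567 bp apart. The replicate 2 summit was 200 bp from a much stronger one in Patronin, with a signal of 387 in the same list, 679 in replicate 1 and 1067 in the conservative list. That Patronin summit lay 635 bp from the nearest eIF3b TSS, so it did not count for eIF3b. Of the 7 genes in both thresholded replicate lists, eIF3b was the only one absent from the conservative list.

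The remaining 12 eIF3 genes were in no thresholded list. Of these, 9 had a ranked peak in replicate 1 with signals from 9.07 at eIF3d2 to 27.5 at eIF3m, and 7 had one in replicate 2 with signals from 3.59 at eIF3l to 44.3 at eIF3c. The eIF3c peak of replicate 2 scored 799, and eIF3c had no peak in the replicate 1 list. eIF3k had ranked peaks of 23.4 and 20.9 with summits 396 bp apart. eIF3i had no peak in either replicate list. Over the whole group of 16, 9 genes had a ranked peak in both replicates.

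The 13 genes of cap binding and unwinding held 3 genes bound in the conservative list, eIF4EHP, eIF4G2 and eIF4E1. eIF4EHP binds the cap without recruiting the rest of the eIF4 complex, and in the early fly embryo it holds caudal and hunchback mRNA silent. Its peak (chr3R:24109104-24109280) had a signal of 332 in the conservative list, rank 443, and lay 201 bp upstream of eIF4EHP and 175 bp upstream of CG18428, a divergent gene. In the replicates the peak had signals of 96.2 and 229 and a score of 1000 in both ranked lists, at ranks 767 and 339, with summits 32 bp apart, yet neither was in the thresholded replicate lists analysed here. eIF4G2, a paralog of the scaffold eIF4G1 known for its role in the male germ line, was bound in every thresholded list. Its peak (chr3R:23818904-23819062) had a signal of 231 in the conservative list, 132 in replicate 1 and 113 in replicate 2, with replicate summits 44 bp apart. The summit lay 170 bp upstream of a TSS shared with CG33111. eIF4E1, the main cap-binding protein, had a peak in its 5' UTR (chr3L:9401871-9402220) with a signal of 105 in the conservative list, 70.9 in replicate 1 and a ranked peak of 34.6 in replicate 2.

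eIF4A, the RNA helicase of the cap complex, had the highest signal of all 51 genes but was in none of the thresholded lists analysed here, and so was not bound by the definition used. In the ranked list behind the conservative list its peak (chr2L:5982317-5982698) had a signal of 2439, rank 58 of 139776 peaks, with a score of 1000. The replicates gave it signals of 1394 (rank 53 of 84640) and 1056 (rank 56 of 94184), both with a score of 1000, and their summits were 4 bp apart. The summit lay in the 5' UTR, 142 bp downstream of the middle of 3 annotated TSSs and 89 bp upstream of the most downstream of them. A peak in the 5' UTR of the neighbouring profilin gene chic, with a signal of 1106 and a score of 1000, was likewise in the ranked list and in no thresholded list. In all, 124 ranked peaks scoring at least 830 were missing from the conservative list in this way, and 107 and 93 from the replicate lists. The cause was not tested. With such peaks added back, 14 factor genes (27.5%) were bound against a background of 11.2%, and 9 (17.6%) were bound in both replicates against 5.75%, the additions being eIF4A and, in the replicates, eIF4EHP too.

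The other 9 genes of this role had weak peaks or none. In replicate 1, 5 had ranked peaks with signals from 9.12 at eIF4E4 to 26.4 at eIF4E6, and in replicate 2, 5 had ranked peaks from 8.47 at eIF4E7 to 17.3 at eIF4E6. Of the eIF4E paralogs eIF4E3, eIF4E4, eIF4E5, eIF4E6 and eIF4E7, only eIF4E6 had a ranked peak in both replicates, and eIF4E3 had none. eIF4G1, the general scaffold, had no peak in either replicate list, whereas its paralog eIF4G2 was bound in both.

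Of the 7 elongation genes, 4 were bound in the conservative list: eEF1gamma, eEF2, eEF1alpha1 and eEF1alpha2. eEF1gamma, a structural subunit of the exchange complex that recharges eEF1alpha, had a peak centred 10 bp upstream of its TSS (chr3R:29219987-29220336) with a signal of 180 in the conservative list and 132 in replicate 1. In replicate 2 its peak was in the ranked list only, with a signal of 55.3 and a score of 793. eEF2, the translocase, was in both replicate lists with a peak 11 bp downstream of a TSS (chr2L:21681978-21682327) and signals of 133 in the conservative list, 83.8 in replicate 1 and 42.2 in replicate 2. Both genes thus had their summit at the start site itself, and both were weaker in rank in replicate 2.

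eEF1alpha1 encodes the main carrier of aminoacyl-tRNA and had 2 conservative peaks, each upstream of a different TSS within an intron of the gene. The stronger (chr2R:11891897-11892246, signal 112) was 50 bp upstream of a TSS and matched the replicate 1 peak (83.6). The weaker (chr2R:11893187-11893536, signal 61.7) was 180 bp upstream of a more downstream TSS and matched the replicate 2 peak (40.0, score 850). The replicate summits were 1312 bp apart, so the call in both replicates does not refer to the same site. eEF1alpha2, the paralog of this carrier, had an intronic peak (chr3R:31739050-31739399) with a signal of 95.2 in the conservative list, 51.6 in replicate 1 and a ranked peak of 39.5 in replicate 2. Its summit, 435 bp upstream of a TSS, was the farthest inside the limit of 500 bp among the bound genes. eEF5, the fly form of the hypusine-carrying factor eIF5A, had a peak 2 bp from its TSS in replicate 1 (60.7), a ranked peak of 14.0 in replicate 2 and a signal of 68.2 in the larger joint list. eEF1beta had no peak in either replicate list and eEF1delta had a ranked peak in replicate 1 (15.6).

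**Figure D3:**
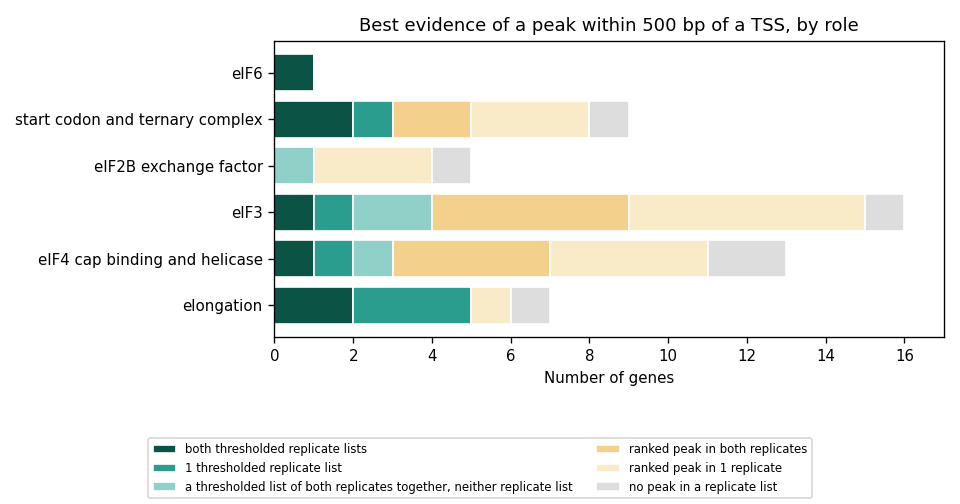
Number of genes (horizontal axis) by role and by the best list in which a peak lay within 500 bp of a TSS. Of 7 elongation genes 5 were in at least 1 thresholded replicate list, and of 16 eIF3 genes 2 were. The share over all protein-coding genes was 10.5%, and differences between roles were not tested.

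The ranked lists hold the thresholded peaks and all weaker ones. A ranked peak of any score was found at 40 factor genes (78.4%) in replicate 1, where the background was 67.9%, and at 33 (64.7%) in replicate 2, where it was 63.2%. Both replicates had one at 28 genes (54.9%, interval 41.4 to 67.7) against 50.6%, an interval that includes the background. The strongest of these peaks ranked higher than those of other genes with a ranked peak: the median percentile was 94.9 beside 79.5 over all protein-coding genes in replicate 1, and 92.0 beside 77.6 in replicate 2. With only ranked peaks of at least the median signal of each list, 25 factor genes had a peak in both replicates, beside 35.7% of all protein-coding genes. These differences were not tested. Over the 14 genes that were bound or added back, the replicate summits lay a median of 29.5 bp apart, from 1 to 1312 bp, and 11 gaps were within 50 bp. The lists that chose these genes score how far the same replicates match, so close summits are partly a condition of the choice. Over the other 14 genes with a ranked peak in both replicates the median gap was 164 bp, from 10 to 567 bp. A total of 6 genes had no peak in either replicate list: eIF2Bbeta, eIF3i, eIF4E3, eIF4G1, eIF5 and eEF1beta.

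Upstream and downstream summits were counted from the nearest TSS of each gene. Of 13 strongest summits, 9 were upstream of the nearest TSS of the gene (69.2%, interval 42.4 to 87.3), beside 78.6% over all bound protein-coding genes. With only the most upstream TSS of each gene, 9 factor genes were bound, beside 9.11% of all protein-coding genes. The upstream share of those 9 was 44.4%. No such share over all bound genes is given for the most upstream TSS, and the 78.6% rests on the nearest TSS. The median distance was 130 bp, beside 144 bp over all bound genes and 31 bp at the cytoplasmic ribosomal protein genes. The 4 downstream summits were those of eEF2, eIF4E1, eIF3h and eIF2Bdelta. At 2 of the 13 genes, eIF1 and eIF4EHP, the summit was nearer to the TSS of another protein-coding gene, RpL28 and CG18428, and at 4 genes another protein-coding TSS lay within 500 bp of the summit.

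**Figure D4:**
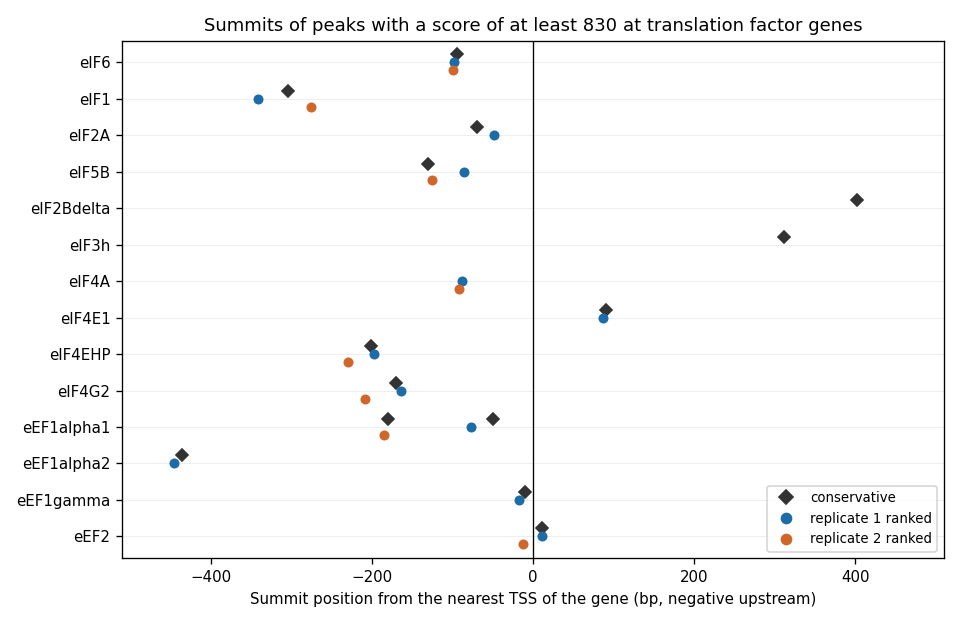
Position of summits scoring at least 830 from the nearest TSS of the gene (horizontal axis, bp, negative upstream), for the conservative list and the ranked lists of both replicates. Shown are the factor genes bound in the conservative list, and eIF4A. Most summits lie within 300 bp upstream of the TSS, and those of eIF3h and eIF2Bdelta lie 312 and 402 bp downstream.

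Bound factor genes had more annotated start sites than the others. Of the 13 bound genes 10 (76.9%) had 2 or more TSSs, and of the 38 others 10 (26.3%) did. The same contrast was present over all protein-coding genes, at 51.1% of bound and 23.5% of unbound genes, and each further TSS widens the stretch in which a summit counts. By chromosome arm, 2 of 5 factor genes were bound on 2L (11.1% of all protein-coding genes there), 3 of 12 on 2R (11.3%), 4 of 11 on 3L (11.8%) and 4 of 15 on 3R (10.6%). None of the 7 factor genes on X was bound, a count too small to set apart from the 10% of all protein-coding genes bound there. The gene on chromosome 4 was not bound either.

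Promoters were read from 250 bp before to 50 bp after the most upstream TSS, on both strands, for 8 words. These were GAGAG and the longer GAGAGAG that holds it, TATCGATA and the shorter CGATA within it, the E-box-like CAGCTG and the TATA-box word TATAAA, and finally GGTCACAC and also TTCTTT. The word TATCGATA, the DNA replication-related element of housekeeping promoters, was in 14 of 51 factor promoters (27.5%) and in 9.36% of all protein-coding promoters. It was in 30.1% of cytoplasmic ribosomal protein promoters. Among the factor genes it was in 2 of the 13 bound (15.4%) and in 12 of the 38 not bound (31.6%), so the word was no more frequent among the bound genes. The GA element GAGAG was in 8 factor promoters (15.7%) beside 29.7% of all, and CAGCTG was in 7.84% beside 17.6%. The TATA-box word was in 45.1% beside 45.8%, GGTCACAC in 11.8% beside 7.69%, and TTCTTT in 31.4% beside 31.4%. CGATA was in 62.7% beside 47.3%, and GAGAGAG in 1.96% beside 5.86%. Over a wider window of 500 bp to each side of the start, GAGAG was in 64.7% of factor promoters beside 66.7% of all.

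Within 50 bp of the summit the comparison was another one, with bound factor genes beside all TSS-proximal summits. TATCGATA was present at 3 of the 13 bound genes (23.1%), eEF1gamma, eIF1 and eIF2A, as printed above. It was at 1.83% of all 1310 TSS-proximal summits of the conservative list. The promoter windows of eIF1 and eIF2A held no TATCGATA, and the eIF1 summit was nearer to RpL28 (77 bp) than to eIF1 (304 bp). Summits of ribosomal protein genes were not counted apart. The shorter CGATA was at 6 (46.2%), with eEF2, eIF5B and eIF4E1 added, beside 15.3%. GAGAG was at 3 (23.1%), eIF4G2, eIF4E1 and eEF1alpha2, beside 25.5% of all. GGTCACAC, part of the core promoter element known as motif 1, was at 2 (15.4%), eIF2A and eEF1alpha1, beside 1.53%. CAGCTG was at none of them, beside 6.95%. Each count is of few genes, the share for all summits is given as a background and not a test, and a match to a word is not evidence that a factor binds it.

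Other genes of protein synthesis were taken from a hand-picked list of 28 symbols, which matched 26 genes. Of these, 5 were bound in the conservative list, where the background over all protein-coding genes was 10.9%: Trmt61, of a tRNA methyltransferase (124), the release factor genes eRF3 and eRF1 (71.6), Thor, the fly 4E-BP that blocks eIF4E (104), and pAbp, the poly(A)-binding protein gene (103). Trmt61, eRF3 (51.4 in replicate 1 and 68.4 in replicate 2) and Thor were in both thresholded replicate lists, 3 of 26 genes against a background of 5.54%, and pAbp was in replicate 1 only. Thor, the inhibitor of eIF4E1, had signals of 74.3 in replicate 1 and 48.1 in replicate 2, with its conservative summit 13 bp upstream of the TSS. The other 21 genes, among them the kinase genes PEK, Gcn2 and S6k, were in no thresholded list analysed here.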

How the data were processed

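Peak lists in dm6 coordinates were used. Per the deposited file lists, they come from irreproducible discovery rate comparisons. Aligner, peak caller and their settings: not given in the sources used here. The deposited columns used were the score (column 5), the signal that the authors' caller gave each peak (column 7) and the summit offset (column 10). 16 columns of single inputs were not used. A possible control experiment named in the labels was not analysed here. No read counts are given, so depth is unknown.

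Gene models came from Ensembl release 115 and bases from the RefSeq genome, in which 99.9% of 16253 annotated start codons read ATG. Summits were start plus offset, and peaks off the main arms were dropped. Each thresholded list was matched to the ranked list that contains it. Python 3.11.15, numpy 2.4.6, pandas 2.3.3 and scipy 1.17.1 were used, and the calls were tested on simulated peaks. Peaks were called per replicate and on both together.

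Named were all genes in a conservative or replicate thresholded list, and the 5 others of best mean ranked percentile with a ranked peak in both replicates. Further genes are named to describe their role groups, and those were chosen after their values were seen. Not all of the 51 genes are named. The genes and lists were chosen with earlier results of these data known. Alternatives changed the TSS distance, list, signal minimum, TSS choice, overlap and sequence windows. No symbol eIF5A exists, so the role group of eIF5A and eIF6 holds eIF6 only.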

Additional observations from a re-analysis of the deposited data

How the results depend on the processing

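Of 48 alternative values, 41 stayed within 1.5 times the main count or within the spread between replicates, and 7 moved. The spread was the standard deviation of the 2 replicate values, 76.4 bp for the median distance. Those replicate values are themselves among the alternatives, so the count of 41 is a lenient measure. With a TSS distance of 200 bp, 8 factor genes were bound in the conservative list (background 7.74%) and 4 in both replicate lists (background 3.61%). The genes lost from the conservative list were eEF1alpha2, eIF1, eIF2Bdelta, eIF3h and eIF4EHP. Leaving out a replicate gave 7 to 13 bound genes, a median rank percentile of 24.3 to 54.2 and an upstream share of 69.2% to 100%. The low counts and percentile and the high share were those of replicate 2. Without replicate 2, 10 of the 13 genes were shared with the conservative list: eIF2Bdelta, eIF3h and eIF4EHP were lost, and eEF5, eIF3a and eIF3b gained. Without replicate 1, the genes lost were eEF1alpha2, eEF1gamma, eIF2A, eIF2Bdelta, eIF3h, eIF4E1 and eIF4EHP, and eIF3b was gained. With only the most upstream TSS, 9 factor genes were bound (background 9.11%), and 44.4% of them had an upstream summit. Over 500 bp to each side of the start, 33 factor promoters (64.7%) held GAGAG, beside 66.7% of all protein-coding promoters. Counting a summit only for its nearest gene lost eIF1 and eIF4EHP. Adding back ranked peaks that score at least 830, chosen after seeing the data, gained eIF4A. No paired analysis was possible because there is 1 group and no test. The cause of these changes was not tested beyond what each setting leaves out.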
